A study of Bos taurus with 79 samples.

Results

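The genes described here are the matrix metalloproteinases (MMP), their tissue inhibitors (TIMP), the ADAM and ADAMTS families and the cathepsins. They were measured in the endometrium of beef heifers. Members were all probe sets whose sole symbol in the array's annotation was MMP, TIMP or ADAM followed by a number, ADAMTS with any ending, or CTS followed by a letter. The rule used names and no measured value. It found 68 of 24016 probe sets, which stand for 41 of 9155 named genes: 11 MMP genes on 21 probe sets, 4 TIMP genes on 9, 7 ADAM genes on 11, 7 ADAMTS genes on 9 and 12 cathepsin genes on 18. A gene with several probe sets is given by the one with the highest mean, and the others are mentioned where they differ.

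Endometrium was taken from cross-bred beef heifers after estrous synchronization, and RNA from strips of 300 mg was hybridised to 79 Affymetrix bovine arrays. The groups cross the day of slaughter (5, 7, 13 or 16) with 4 arms, which are cyclic heifers with normal progesterone (CN), cyclic heifers with high progesterone (CH), and pregnant heifers with normal (PN) or high progesterone (PH). There were 16 groups, of 5 heifers each apart from the 4 of CH on day 7. In the high progesterone arms a progesterone releasing intravaginal device (PRID) was put in on day 3 and stayed until slaughter, and per the labels it raised the circulating hormone transiently, in the range of 1 ng/ml. Pregnant heifers had been inseminated and found pregnant. Because whole strips were measured, fewer cells of a type and less RNA per cell cannot be told apart.

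MMPs are zinc proteases that cut collagens and other matrix proteins, and TIMPs bind and block them. ADAMs sit in the cell membrane and many of them cut other membrane proteins free, whereas ADAMTS proteases are secreted and act on proteoglycans and procollagens. Cathepsins work mainly in lysosomes, where they degrade proteins and trim antigens, and some are secreted. In ruminants the endometrium is remodelled and secretes into the lumen under progesterone before the conceptus attaches, without deep invasion by the trophoblast.

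Values are the authors' log2 expression values, and a difference of 1 is a 2-fold change on that scale. A probe set with a mean under 3 was called near the floor of the array, where the size of a difference is uncertain. In all, 26 of the 68 member probe sets (38.2%) lay there, against 32.2% of all probe sets. Of the 41 genes, 14 had even their highest probe set near the floor, and 7 of these were MMPs. They were the collagenases MMP1 and MMP13, the stromelysin MMP3, the gelatinase MMP9, the membrane-type proteases MMP15 and MMP16, the enamel protease MMP20, TIMP4, ADAM2, ADAM15, ADAM23, ADAMTS2, ADAMTS8 and ADAMTSL2. No cathepsin gene was near the floor. In the RefSeq annotation MMP3 and MMP1 are next to each other on the chromosome, as are ADAMTS5 and ADAMTS1.

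Differences were tested with limma over all 24016 probe sets, and a gene is said to rise or fall where the Benjamini-Hochberg adjusted p was under 0.05. The day comparisons average the 4 arms with equal weight and answer how these genes changed as the cycle or early pregnancy advanced. No 2 arrays held identical values. The tissue label was checked with marker genes: stromal markers were measured for 9 of 10 genes and none was near the floor, epithelial markers for 11 of 12 with KRT8 near the floor, and 2 of 5 measured uterine markers (PGR and ESR1) were near the floor. Of 6 measured markers of the conceptus, 5 were near the floor. A pair of arrays stood apart in many members. CH 3 of day 5 lay more than 1 log2 unit beyond all other arrays of its group in 9 member probe sets, and CN 5 of day 7 in 7. CH 3 of day 7, 1 of the 4 arrays of its group, and PH 1 of day 13 had a narrow distribution. The SD of their values was 2.61 and 2.68, under a limit of 2.7.

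TIMP2 had the clearest course of the inhibitors. TIMP2 blocks MMPs, and together with MMP14 it takes part in activating MMP2. On day 5 its 20 arrays ranged from 11.60 to 12.69 with a median of 12.28, and on day 7 its 19 arrays from 11.27 to 13.43 with a median of 12.87. On day 13 it ranged from 13.53 to 14.48 with a median of 14.06, and on day 16 from 12.83 to 14.14 with a median of 13.76. No array of day 13 was as low as any array of day 7, whereas the arrays of days 5 and 7 overlapped.

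TIMP2 rose by 0.57 ± 0.09 (SE; adjusted p = 4.3e-06, limma) from day 5 to day 7. It rose by a further 1.17 ± 0.09, or 2.24-fold, to day 13 (limma adjusted p = 1.0e-16). All 3 of its probe sets rose between days 7 and 13, by 1.11 to 1.17, and in 2 of them the days did not overlap, which held for 1.16% of all probe sets. From day 13 to day 16 it fell by 0.32 ± 0.09 (limma adjusted p = 0.0191). Its other 2 probe sets did not share that fall, with differences of 0.01 each.

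**Figure D1:**
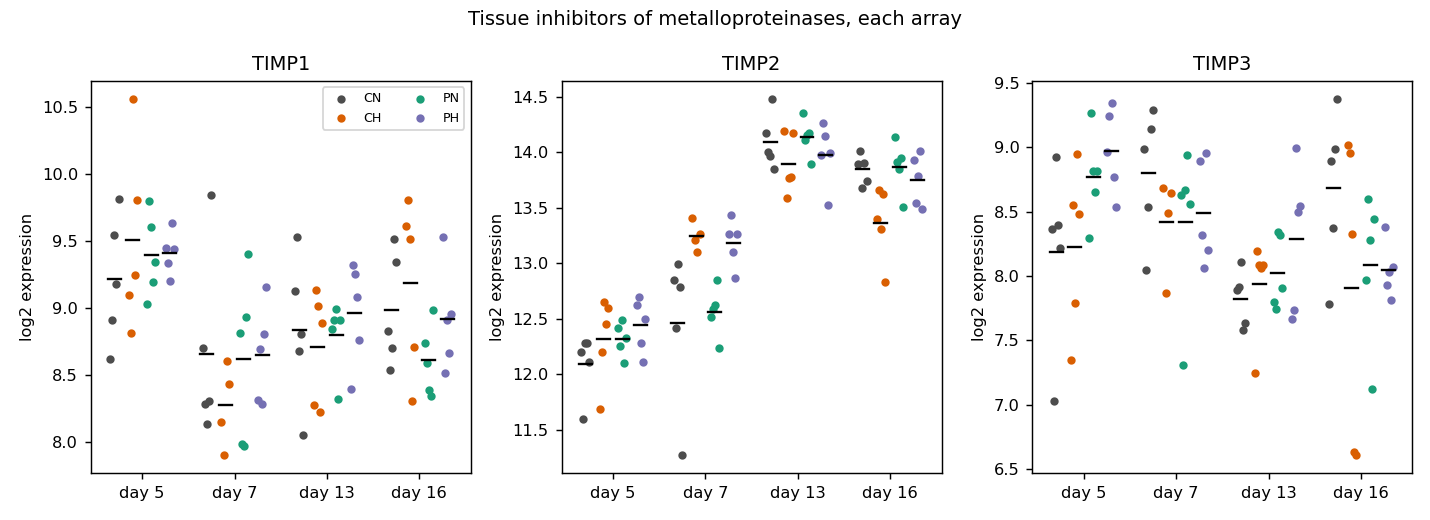
TIMP1, TIMP2 and TIMP3 on each array (points, log2 expression) by day and arm, with the group mean as a black bar; CN and CH are cyclic heifers with normal and high progesterone, PN and PH pregnant heifers with normal and high progesterone. TIMP2 lay between 11.60 and 12.69 on day 5 and between 13.53 and 14.48 on day 13, and on day 7 the orange CH points lay above all grey CN points. The share of all probe sets in which CH and CN separated was not counted.

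TIMP1 and TIMP3 went other ways. TIMP1, a soluble inhibitor of most MMPs, had a median of 9.34 on day 5 (8.62 to 10.56) and of 8.44 on day 7 (7.91 to 9.85), so the days overlapped. It fell by 0.83 ± 0.15 (limma adjusted p = 1.6e-05), and its second probe set also fell, by 0.77. TIMP1 then had medians of 8.90 on day 13 and 8.79 on day 16, and neither later step passed the test. The highest TIMP1 arrays of these days were CH 3 of day 5 (10.56) and CN 5 of day 7 (9.85, against 8.14 to 8.70 in the rest of its group), and without either one the fall was 0.77 or 0.91 and was still called. TIMP3, which is held in the matrix, had medians of 8.60 and 8.63 on days 5 and 7, 7.99 on day 13 and 8.30 on day 16. TIMP3 fell by 0.52 ± 0.18 from day 7 to day 13 (limma adjusted p = 0.0161).

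Of all members, 19 probe sets passed the test between days 5 and 7 (27.9%, against 20.7% of all probe sets), 8 upward (8.84% of all) and 11 downward (11.8% of all). Between days 7 and 13 the count was 29 (42.6%, against 36.9% of all), 16 upward (18.8% of all) and 13 downward (18.1% of all). Between days 13 and 16 it was 5 (7.35%, against 8.65% of all), all downward (3.62% of all). The members' median difference was -0.03, -0.01 and 0.01 in these steps, against 0.01, -0.01 and 0.00 for all probe sets. In the first 2 steps the members' shares were somewhat above those of all probe sets and in the last step below them, with no test of that difference, and members moved in both directions. Counted by gene, 4 rose and 9 fell from day 5 to day 7, 9 rose and 10 fell from day 7 to day 13, and 4 fell from day 13 to day 16. Over the 3 steps 23 of the 41 genes were called at least once and 18 never. The share of all named genes called at least once was not counted, so this is no result about the members.

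**Figure D2:**
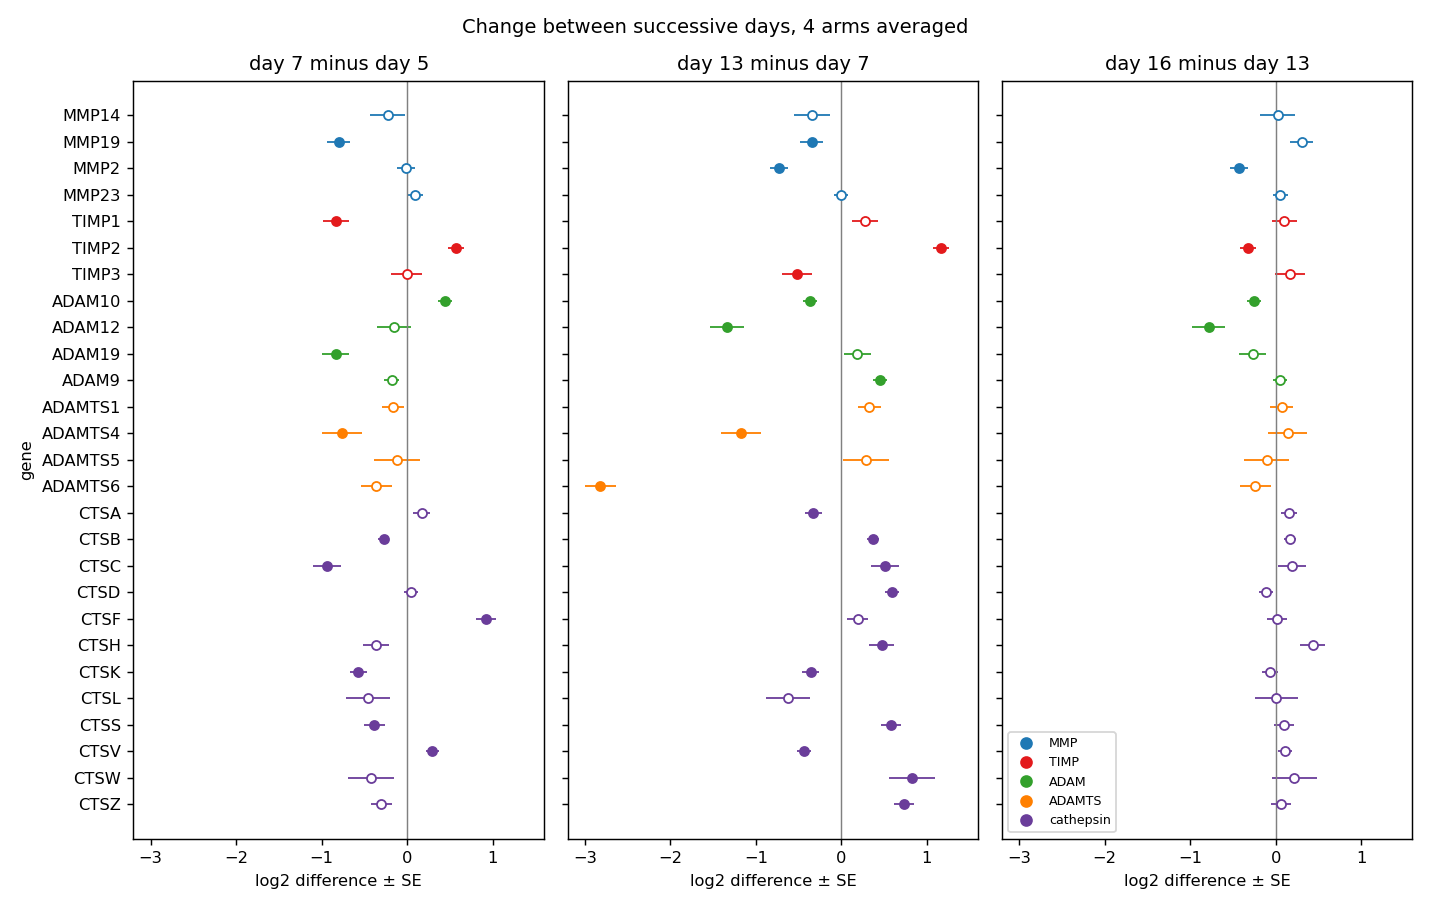
Difference between successive days (log2, with its SE as a bar) for the 27 member genes that were not near the floor, coloured by subfamily; filled points passed the limma test at an adjusted p under 0.05. ADAMTS6 stands farthest from 0, at -2.82 between days 7 and 13, and TIMP2 is the highest rise of that step, at 1.17.

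Among the secreted metalloproteases, ADAMTS6 fell close to the floor between days 7 and 13. Its 20 arrays of day 5 ranged from 4.57 to 7.44 (median 6.62) and its 19 arrays of day 7 from 4.63 to 7.78 (median 6.04). On day 13 they ranged from 2.84 to 4.99 (median 3.23) and on day 16 from 2.66 to 3.53 (median 2.98). The array PH 4 of day 13, at 4.99, was the only one of the late days that reached into the range of day 7. That array also stood far from its group in smooth muscle markers, with a mean of 12.45 against 6.66 to 7.76 in the other 4, and without it ADAMTS6 fell by 2.91. ADAMTS6 fell by 2.82 ± 0.18, or 7.05-fold (limma adjusted p = 5.3e-21), and within the arms by 3.09 (CN), 2.54 (CH), 3.35 (PN) and 2.29 (PH).

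ADAMTS4, which cuts the proteoglycans aggrecan and versican, stepped down in both early intervals. Its median was 6.33 on day 5 (5.73 to 7.37), 5.76 on day 7 (4.48 to 7.30) and 4.51 on day 13 (3.64 to 5.15). The arrays of successive days overlapped. ADAMTS4 fell by 0.76 ± 0.24 (limma adjusted p = 0.0135) and then by 1.17 ± 0.24 (limma adjusted p = 3.3e-05). The highest ADAMTS4 array of day 7 was CN 5 (7.30, against 5.00 to 5.85 in the rest of its group), and without it the falls were 0.85 and 1.08 and both were still called. ADAMTS2, which trims procollagen, was near the floor and fell by 0.47 ± 0.16 from day 5 to day 7 (limma adjusted p = 0.0225). Its medians were 2.30 and 2.05, and on day 5 its highest array reached 3.98. On day 7 CN 5 was at 3.60, against 2.07 to 2.45 in the rest of its group. The call of ADAMTS2 was lost without CN 5, CH 4 or PH 4 of day 5 (highest adjusted p 0.0551, limma). ADAMTS1 and ADAMTS5, which cut the same proteoglycans as ADAMTS4, passed no day comparison, with ADAMTS1 at medians of 9.69, 9.64, 9.89 and 9.97 over the days.

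**Figure D3:**
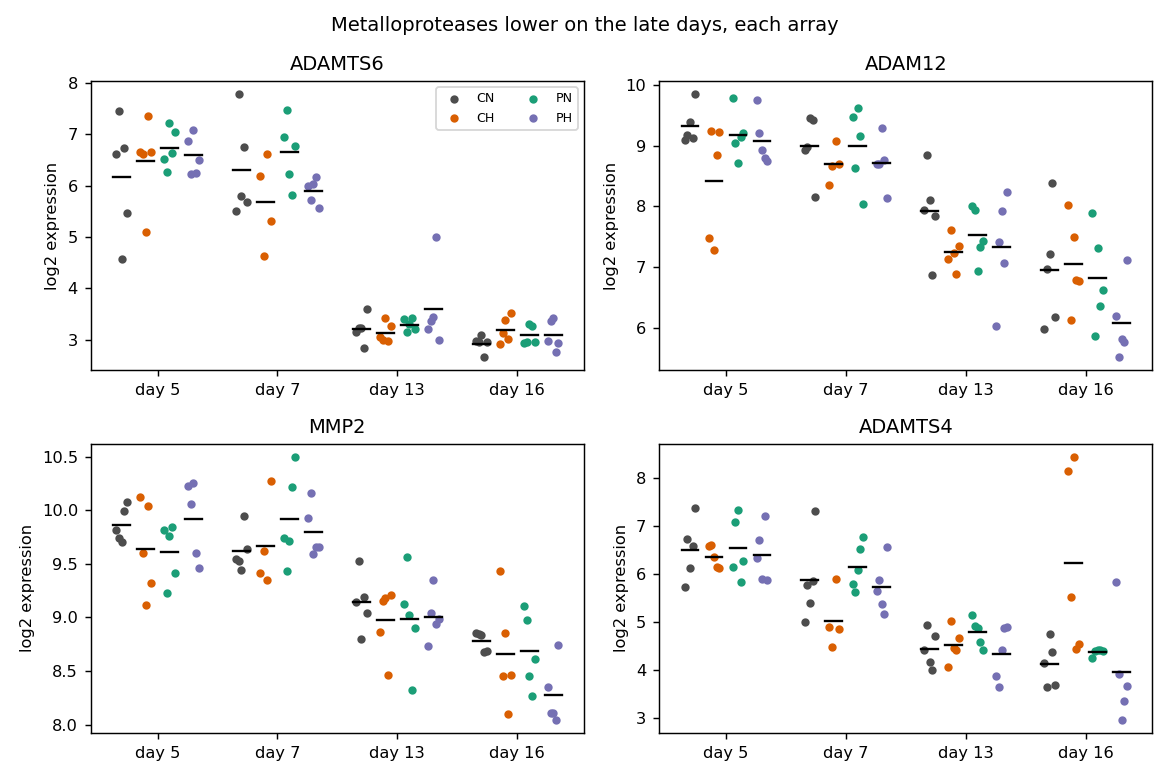
ADAMTS6, ADAM12, MMP2 and ADAMTS4 on each array (points, log2 expression) by day and arm (CN, CH, PN, PH as cyclic or pregnant, normal or high progesterone), with the group mean as a black bar. ADAMTS6 lay between 4.63 and 7.78 on day 7 and between 2.84 and 4.99 on day 13, and ADAMTS4 reached 8.44 in CH heifers of day 16.

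Among the MMPs only MMP2 and MMP19 were called at their highest probe set in a day comparison. MMP2, the gelatinase that cuts type IV collagen, had medians of 9.79 and 9.65 on days 5 and 7, 9.04 on day 13 (8.32 to 9.56) and 8.64 on day 16 (8.04 to 9.43). Days 7 and 13 overlapped, since the lowest array of day 7 was at 9.35. MMP2 fell by 0.73 ± 0.11 from day 7 to day 13 (limma adjusted p = 3.7e-08) and by another 0.43 ± 0.10 to day 16 (limma adjusted p = 0.00378).

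MMP19 fell earlier. Its median was 7.62 on day 5 (6.78 to 8.09), 6.84 on day 7 (5.75 to 7.67) and 6.52 on day 13 (5.17 to 7.23). The days overlapped in each step. MMP19 fell by 0.80 ± 0.13 (limma adjusted p = 5.0e-06) and then by 0.35 ± 0.13 (limma adjusted p = 0.0333). The second step of MMP19 was lost when any of 10 arrays was left out (CN 5, CH 4 and 5, PN 4 and 5 and PH 2 of day 7, and CN 5, CH 1, PN 4 and PH 4 of day 13), with a highest adjusted p of 0.0855 (limma). It was also lost with array weights, with only the days concerned, without the arrays far from their group mean, without those of high smooth muscle markers, and in each arm alone, where CH had the opposite sign (0.12). MMP14, which is anchored in the membrane and activates MMP2, had medians of 3.52, 3.53, 3.52 and 3.51 and passed no day comparison. MMP23 stayed at medians of 8.51, 8.65, 8.64 and 8.70. A second probe set of MMP23 fell by 0.31 ± 0.11 from day 7 to day 13 (limma adjusted p = 0.0176), where the highest one had a difference of 0.00.

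The ADAMs also split. ADAM12, a membrane protease known from mesenchymal cells, had medians of 9.14 on day 5, 8.77 on day 7 (8.04 to 9.62), 7.42 on day 13 (6.04 to 8.84) and 6.70 on day 16 (5.52 to 8.38). The later days lay lower but overlapped with day 7. ADAM12 fell by 1.34 ± 0.20, or 2.53-fold, from day 7 to day 13 (limma adjusted p = 6.9e-08) and by 0.78 ± 0.20 to day 16 (limma adjusted p = 0.00529).

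ADAM10, the protease that releases the ectodomains of Notch and other receptors, went up and came back. Its median was 10.57 on day 5 (10.29 to 11.38), 11.15 on day 7 (10.50 to 11.62) and 10.82 on day 13 (10.22 to 11.22). All 3 probe sets rose to day 7 and all 3 fell to day 13, the highest by 0.44 ± 0.08 (limma adjusted p = 3.3e-05) and 0.36 ± 0.08 (limma adjusted p = 0.000205). A further fall of ADAM10 by 0.25 ± 0.08 to day 16 (limma adjusted p = 0.0377) was lost when any of 17 arrays was left out: CN 3 and 5, CH 1 and 4, PN 3 and 5 and PH 3, 4 and 5 of day 13, and CN 2 and 4, CH 1, 2 and 3, PN 1 and PH 3 and 4 of day 16 (highest adjusted p 0.0752, limma).

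ADAM9 rose by 0.45 ± 0.09 from day 7 to day 13 (limma adjusted p = 1.1e-05), with all 3 probe sets rising. Its arrays ran from 8.20 to 9.78 on day 7 (median 8.93) and from 9.15 to 9.97 on day 13 (median 9.40). ADAM19 fell by 0.83 ± 0.16 from day 5 (median 5.36, 4.35 to 6.84) to day 7 (median 4.51, 3.40 to 5.42) (limma adjusted p = 5.4e-05). The arrays of both genes overlapped between the days.

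Cathepsins moved in both directions. Of their 12 genes, 2 rose and 4 fell from day 5 to day 7 (median difference -0.33), beside 8.84% and 11.8% of all probe sets, and 1 of the falls was CTSB, whose direction is not settled. From day 7 to day 13, 7 rose and 3 fell (median difference 0.42), beside 18.8% and 18.1% of all probe sets, and none was called from day 13 to day 16. For all probe sets the medians of these first steps were 0.01 and -0.01. Averaged over all arrays, CTSV was at 12.66, CTSB at 10.65, CTSH at 8.94 and CTSA at 8.51.

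CTSF, a lysosomal cysteine protease, was the largest early rise of the members. Its arrays ran from 5.73 to 7.23 on day 5 (median 6.35) and from 6.12 to 7.94 on day 7 (median 7.26), followed by medians of 7.45 and 7.37. It rose by 0.92 ± 0.12, or 1.90-fold (limma adjusted p = 1.9e-08). By arm the difference was 0.59 (CN), 1.10 (CH), 0.99 (PN) and 1.02 (PH), and it was called in every arm but CN. In CN the array CN 5 of day 7 was at 6.12, within the range of day 5. CTSV, a close relative of cathepsin L, rose by 0.30 ± 0.08 (limma adjusted p = 0.0040) and fell by 0.44 ± 0.08 from day 7 to day 13 (limma adjusted p = 5.5e-06).

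The early falls were in CTSC, CTSK, CTSS and CTSB. CTSC activates the granule proteases of leukocytes, and its median went from 7.73 on day 5 (6.96 to 10.88) to 6.90 on day 7 (5.99 to 8.41). It fell by 0.94 ± 0.17 (limma adjusted p = 1.3e-05). CTSK, a protease that degrades collagen, went from 9.85 (9.35 to 10.27) to 9.23 (8.77 to 10.46) and fell by 0.57 ± 0.10 (limma adjusted p = 1.1e-05). It fell again to day 13, by 0.36 ± 0.10 (limma adjusted p = 0.00253). CTSS, which processes antigens in macrophages and dendritic cells, went from a median of 11.42 (10.72 to 13.48) to 11.10 (10.50 to 12.06) and fell by 0.38 ± 0.12 (limma adjusted p = 0.0147).

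CTSB is a broad lysosomal protease whose 6 probe sets disagreed. The highest fell by 0.27 ± 0.07 from day 5 to day 7 (limma adjusted p = 0.00133), a second probe set of CTSB fell and another rose by 0.53 ± 0.16 (limma adjusted p = 0.0101). From day 7 to day 13 CTSB rose by 0.37 ± 0.07 (limma adjusted p = 3.9e-06), with 3 of its probe sets rising and 3 not called and of opposite sign. CTSB therefore has no settled direction in the first step.

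The array CH 3 of day 5 held the highest CTSC and CTSS values of all 79, at 10.88 and 13.48. Without it CTSC fell by 0.79 and CTSS by 0.28, and both were still called (highest adjusted p without any one array 0.0367 for CTSS, limma). Within single arms both falls were called in CH alone, the arm of that array, and in none of CN, PN and PH, where CTSC was at -0.57, -0.28 and -0.98 and CTSS at -0.06, -0.24 and -0.30. With only the days concerned CTSS was not called (limma adjusted p = 0.0602). The highest CTSC array of day 7 was CN 5, at 8.41, and without it CTSC fell by 1.01. Of 11 measured macrophage markers, 10 fell from day 5 to day 7, with a median of -0.74, where 11.8% of all probe sets fell. The mean of those markers per group ranged from 6.55 to 7.62 on day 5 and from 5.86 to 6.78 on day 7. The highest of these means were those of CH on day 5 and CN on day 7. They include CH 3 of day 5, at 10.13 against 6.32 to 7.71 in the rest of its group. They also include CN 5 of day 7, at 7.84 against 5.79 to 7.19. The falls of the markers were not recomputed without either array. The part of macrophage number in the falls of CTSC and CTSS was not tested.

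Between days 7 and 13 the rises covered CTSW, CTSZ, CTSD, CTSS, CTSC, CTSH and CTSB. CTSD, the aspartic protease of lysosomes, ran from 7.91 to 8.74 on day 7 (median 8.32) and from 8.34 to 9.50 on day 13 (median 8.94). It rose by 0.59 ± 0.08, or 1.51-fold (limma adjusted p = 2.0e-08). CTSZ, a carboxypeptidase, ran from 7.99 to 8.88 on day 7 (median 8.41) and from 8.32 to 9.94 on day 13 (median 9.19). It rose by 0.73 ± 0.12, or 1.66-fold (limma adjusted p = 5.9e-07). In each of these the days overlapped.

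CTSW, known from cytotoxic lymphocytes, rose by 0.83 ± 0.27 (limma adjusted p = 0.0101) from a median of 4.08 to 4.89. CN 5 of day 7 was at 6.54 in CTSW, against 2.44 to 5.03 in the rest of its group, and without it the rise was 0.95. CTSS rose by 0.58 ± 0.12, CTSC by 0.51 ± 0.17 and CTSH, an aminopeptidase, by 0.47 ± 0.15 (limma adjusted p = 0.00935). Macrophage markers moved little in this step, with 1 of 11 rising and a median of 0.07, where 18.8% of all probe sets rose. No T and NK cell marker of 13 was called, and 6 of them were near the floor. The part of cell numbers in the cathepsin rises was not tested. Against these rises, CTSV, CTSK and CTSA fell. CTSA, a serine carboxypeptidase that protects other lysosomal enzymes, fell by 0.33 ± 0.10 (limma adjusted p = 0.00499). CTSL ran from 3.01 to 6.05 on day 5 and had medians of 4.09, 3.46, 3.07 and 3.13 over the days. No step of CTSL was called, and its step from day 7 to day 13 had an adjusted p of 0.0504 (limma).

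**Figure D4:**
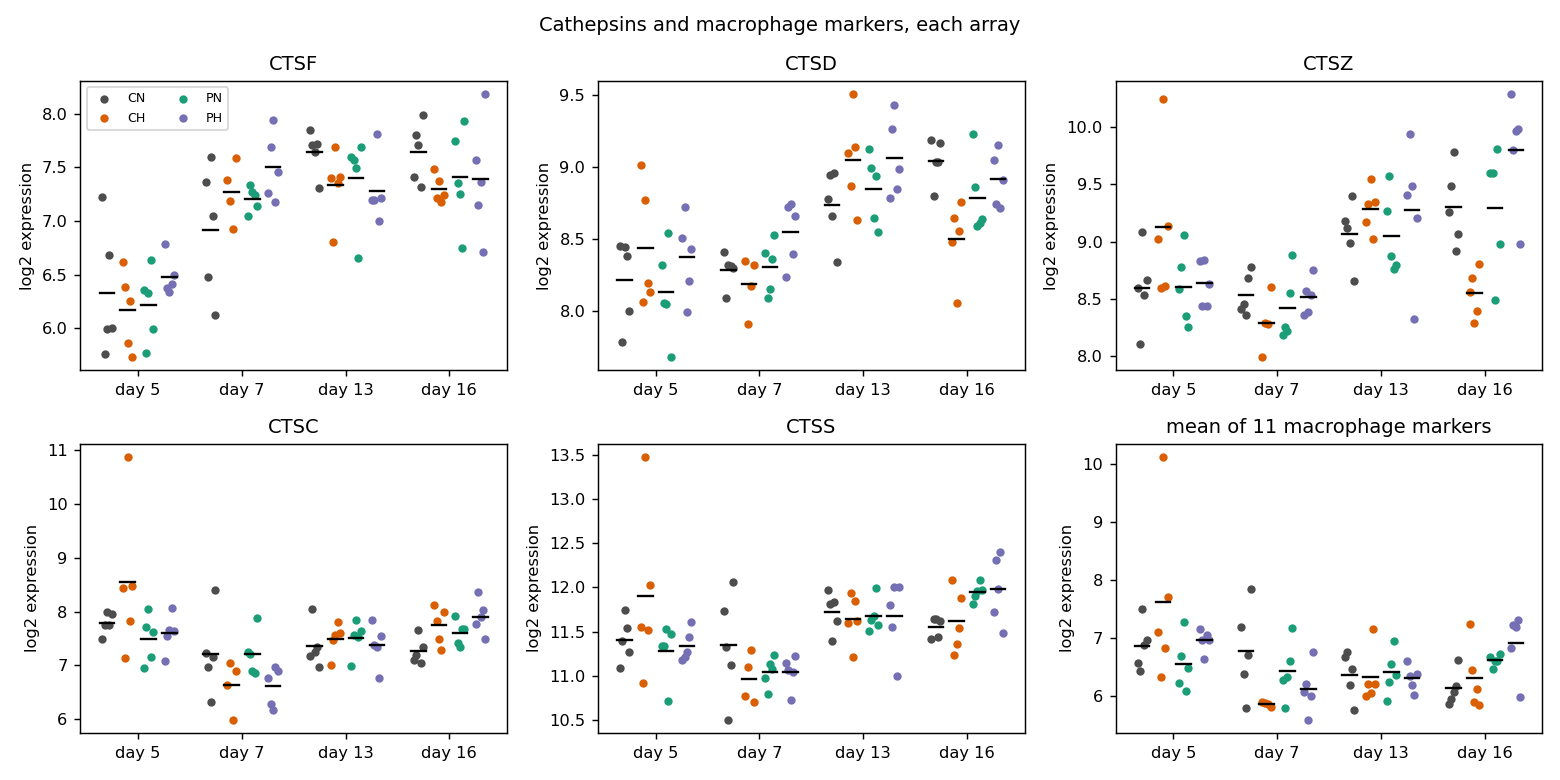
CTSF, CTSD, CTSZ, CTSC and CTSS and the mean of 11 macrophage markers on each array (points, log2 expression) by day and arm (CN, CH, PN, PH as cyclic or pregnant, normal or high progesterone), with the group mean as a black bar. The highest point of CTSC (10.88), CTSS (13.48) and the macrophage mean (10.13) is the same array, CH 3 of day 5.

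Raised progesterone was compared with normal progesterone on each day, with cyclic and pregnant heifers averaged. On day 7, 1 member probe set was called (1.47%, against 4.7% of all probe sets), and it was TIMP2, upward (1.85% of all). No member was called on day 5 (0.908% of all), day 13 (0.441% of all) or day 16 (0.0958% of all). At an unadjusted limma p under 0.05 there were 6, 8, 4 and 6 member probe sets on days 5, 7, 13 and 16. The share of all probe sets at that unadjusted threshold was not computed, so these counts show no excess among the members.

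On day 7 TIMP2 was at 12.85, 12.42, 12.99, 12.79 and 11.27 in CN and at 13.41, 13.21, 13.10 and 13.26 in CH. It was at 12.51, 12.58, 12.62, 12.85 and 12.23 in PN and at 13.27, 13.43, 13.10, 12.87 and 13.26 in PH. In cyclic heifers every CH array was above every CN array, and in pregnant heifers every PH array was above every PN array, although the PH array at 12.87 was below the CN array at 12.99. With cyclic and pregnant heifers pooled, high and normal arrays thus overlapped, and 0.15% of all probe sets did not. The share of all probe sets that separated within cyclic or within pregnant heifers was not counted. TIMP2 was higher by 0.70 ± 0.14, or 1.63-fold (limma adjusted p = 0.000467). In cyclic heifers alone the difference was 0.78 ± 0.20 (limma adjusted p = 0.0165) and in pregnant heifers alone 0.63 ± 0.19 (limma adjusted p = 0.122). Without CN 5 the difference was 0.56 and was still called. The other 2 probe sets of TIMP2 had differences of 0.24 and 0.35 and were not called, and a fit of day 7 alone did not call the highest one.

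By day 13 the TIMP2 difference between high and normal progesterone was -0.18 ± 0.13 (limma adjusted p = 0.902). The progesterone difference on day 13 minus that on day 7 was -0.88 ± 0.19 (limma adjusted p = 0.00515), the only member called in that comparison (1.47%, against 1.44% of all, and 0.995% downward). Of the 3 TIMP2 probe sets 1 was called there, and none had the opposite sign. Seen as a course, TIMP2 rose from day 5 to day 7 by 0.93 in CH and 0.74 in PH. In CN and PN it differed by 0.37 and 0.24, and neither arm alone was called. From day 7 to day 13 it rose by 0.65 in CH and 0.80 in PH against 1.63 in CN and 1.58 in PN. Both CN steps include CN 5 of day 7, at 11.27 against 12.42 to 12.99 in the rest of its group. The steps of the CN arm alone were not computed without that array.

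Pregnant and cyclic heifers were compared on each day, with both progesterone levels averaged. No member was called on day 5 (0.0167% of all probe sets), day 7 (0.0%) or day 13 (0.0%), where 10, 2 and 1 had an unadjusted limma p under 0.05. On day 16, 1 of 68 was called (1.47%, against 3.16% of all) and 11 had an unadjusted limma p under 0.05. It was CTSZ, upward (2.13% of all). The pregnancy difference on day 16 minus that on day 13 was called for no member (0.974% of all), with 7 at an unadjusted limma p under 0.05. The shares given here are for adjusted p, and none was computed for the unadjusted counts, which therefore show no excess among the members.

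CTSZ on day 16 was at 9.26, 9.49, 9.78, 8.92 and 9.07 in CN and at 8.56, 8.68, 8.29, 8.40 and 8.81 in CH. It was at 9.60, 9.60, 8.48, 9.81 and 8.98 in PN and at 10.29, 9.80, 9.97, 9.98 and 8.98 in PH. Every PH array was above every CH array, whereas PN and CN overlapped. The share of all probe sets in which PH and CH separated was not counted. CTSZ was higher in pregnant heifers by 0.62 ± 0.17, or 1.54-fold (limma adjusted p = 0.0176), with -0.01 ± 0.24 at normal progesterone and 1.26 ± 0.24 at high progesterone (limma adjusted p = 0.000166 for the latter). The call was lost without PN 4 or without PH 1 (highest adjusted p 0.0595, limma). Macrophage markers also differed on day 16, with 3 of 11 higher in pregnant heifers (median 0.62) and group means of 6.13 (CN), 6.31 (CH), 6.61 (PN) and 6.91 (PH). Their part in the CTSZ difference was not tested.

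Whether the pregnancy difference depended on progesterone was tested by the interaction on each day. On day 16, 2 members passed (2.94%, against 0.87% of all probe sets), CTSZ upward (0.62% of all) and ADAMTS4 downward (0.25% of all). None passed on day 5 (0.0% of all), day 7 (0.025%) or day 13 (0.0208%), where 2, 9 and 1 had an unadjusted limma p under 0.05. For these unadjusted counts too, no share of all probe sets was computed. Without CH 5 of day 7 the interaction of that day was called for 9 members, and without CH 2 for 5. The share of all probe sets called under these omissions is not given here, so the counts are no result about the members.

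ADAMTS4 on day 16 was at 4.14, 3.63, 4.73, 4.37 and 3.69 in CN and at 8.14, 5.52, 8.44, 4.43 and 4.54 in CH. It was at 4.24, 4.40, 4.41, 4.41 and 4.40 in PN and at 5.83, 3.92, 2.96, 3.35 and 3.67 in PH. CH heifers 1 and 3 stood above all other arrays of that day, and CH 4 and 5 lay within the range of CN. The interaction was -2.53 ± 0.66 (limma adjusted p = 0.0419), and in cyclic heifers alone CH was above CN by 2.10 ± 0.46 (limma adjusted p = 0.00809). For CTSZ the interaction was 1.27 ± 0.33 (limma adjusted p = 0.0435). The ADAMTS4 call was lost without CN 2 or 5, CH 1 or 3, PN 2, 3, 4 or 5, or PH 3 or 4, where the highest adjusted p was 0.155 (limma). That of CTSZ was lost without CN 2, 3 or 5, CH 3, 4 or 5, PN 3 or 5, or PH 1, 3 or 4, where it was 0.142.

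Genes around the members were described from 4 lists, whose counts are by gene. Among all probe sets 8.84% rose and 11.8% fell from day 5 to day 7, 18.8% rose and 18.1% fell from day 7 to day 13, and 3.62% fell from day 13 to day 16; no count of a list was tested against these shares. Of 25 measured matrix substrates, such as collagens, laminins and proteoglycans, none rose and 16 fell from day 5 to day 7 (median -0.38), among them FN1 (fibronectin) by 1.05 ± 0.14, COL5A2 by 0.98, COL15A1 by 0.85 and COL1A1 by 0.85. From day 7 to day 13, 2 rose and 10 fell, with COL18A1 falling by 1.18, COL1A1 by 1.00 and the proteoglycan VCAN by 0.82, and the basement membrane protein NID2 rising by 0.84. From day 13 to day 16, 4 fell, and on day 16 COL3A1, COL1A2 and COL15A1 were lower in pregnant heifers, with differences of -0.38, -0.40 and -0.75. COL1A1, COL3A1, DCN and LUM are in the list of stromal markers too, of which 4 of 9 fell from day 5 to day 7. With high progesterone on day 7, COL5A2 was the 1 substrate called, at -0.72.

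Of 18 measured regulators and neighbours of the matrix proteases, 4 rose and 5 fell from day 5 to day 7, beside 8.84% and 11.8% of all probe sets. Heparanase (HPSE), which cuts heparan sulphate and was near the floor, rose by 1.00 ± 0.19. THBS2, a matrix protein that binds MMP2, fell by 0.95 ± 0.19. From day 7 to day 13, 6 rose and 3 fell, beside 18.8% and 18.1% of all probe sets. The metalloprotease meprin beta (MEP1B) rose by 5.43 ± 0.22 (limma adjusted p = 1.8e-30), and basigin (BSG), an inducer of MMPs, fell by 1.44 ± 0.08. With high progesterone on day 7, HPSE was higher by 2.27 ± 0.28 (limma adjusted p = 1.2e-07) and SPOCK2 by 1.03. The plasminogen activator PLAU and the procollagen enhancer PCOLCE were at -1.13 and -0.78 in that comparison. On day 16 the stromal protease FAP was lower in pregnant heifers, at -0.88 ± 0.18 (limma adjusted p = 0.000743).

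Of 7 measured cystatins and other cathepsin inhibitors, CST6 (cystatin M) rose by 3.58 ± 0.17 and SERPINB1 by 0.56 from day 7 to day 13, and CST6 fell by 0.61 to day 16. Of 29 measured lysosomal genes, 11 rose and 2 fell from day 5 to day 7 (8.84% and 11.8% of all probe sets), and 8 rose and 11 fell from day 7 to day 13 (18.8% and 18.1% of all). In the latter step the cysteine protease legumain (LGMN), which processes cathepsins, rose by 2.31 ± 0.13 and the cholesterol transporter NPC1 by 1.05, and the acid phosphatase ACP5 fell by 3.38 ± 0.21 and beta-glucuronidase (GUSB) by 1.94. On day 16 LIPA and NEU1 were higher in pregnant heifers, by 0.84 and 0.86.

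MMP3 showed the widest gap between arrays. This stromelysin cuts many matrix proteins and activates other MMPs, and in nearly all arrays it was near the floor. In CH 3 of day 5 a probe set of MMP3 was at 9.87, against 2.29 to 2.36 in the other 4 arrays of the group, and another at 7.81, against 1.91 to 1.98. The probe set of MMP3 with the highest mean was at 2.89 there. On the same array CTSC was at 10.88, CTSH at 11.40, CTSS at 13.48, CTSZ at 10.25 and CTSW at 5.83, all above the other arrays of the group, and ADAMTS6 was at 5.10, below them. The mean of its macrophage markers was 10.13 and that of its granulocyte and mast cell markers 7.41. Its T and NK cell markers had a mean of 5.64, against 3.12 to 3.54 in the other 4 arrays, and its B and plasma cell markers one of 7.33, against 3.62 to 3.77. These values belong to 1 heifer and were tested against nothing.

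**Figure D5:**
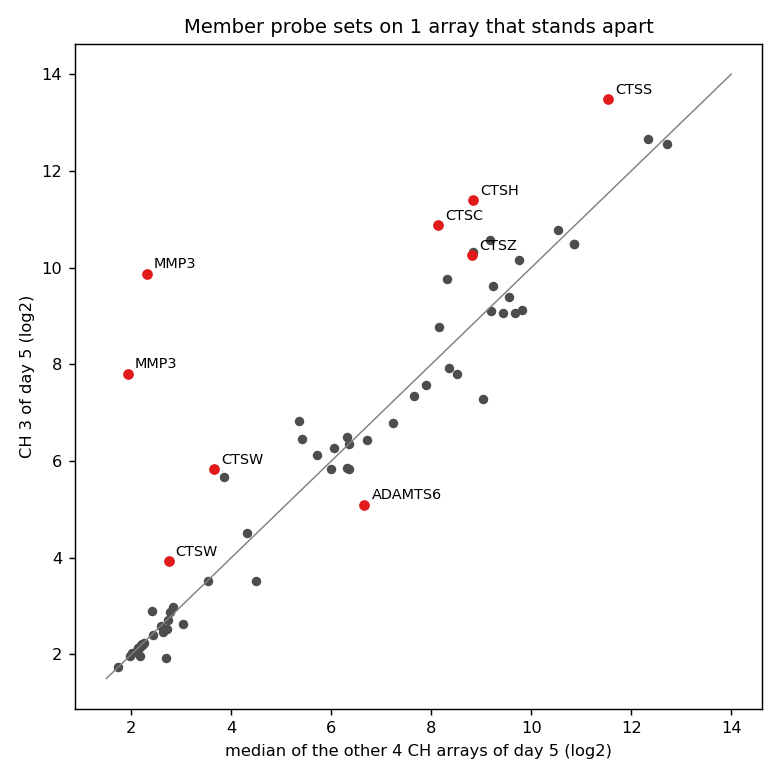
Each member probe set on the array CH 3 of day 5 (vertical axis, log2) against its median on the other 4 CH arrays of that day (horizontal axis, log2), with the line of equality; the 9 probe sets in red lay more than 1 log2 unit beyond all 4. The 2 MMP3 probe sets at 9.87 and 7.81 are the farthest from the line.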

How the data were processed

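The data are 79 arrays of bovine endometrium in 16 groups. The authors deposited log2 expression values per probe set; the submitters' processing notes name limma, RMA and GCRMA with no version or order, so whether RMA or GCRMA made the values is not given in the sources used here. How far low signals were compressed is therefore not known, and values ranged from 0.95 to 15.37. The number of arrays limits the precision. Symbols came from the platform annotation, and all 68 member probe sets matched RefSeq with 0 symbols changed. The values were used as deposited, without the 112 control probe sets. limma 3.58.1 (R 4.3.3) was fitted on 16 group means, without trend or robust options, and adjusted over 24016 probe sets. The script was tested on simulated data. Replicate numbers do not pair heifers: mean correlations of deviations between arrays of the same number were 0.0294, 0.0467, 0.0228 and -0.0092 on days 5, 7, 13 and 16. p-values measure the spread between heifers.

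Genes named with values were, by rule, the 3 of each subfamily with the smallest adjusted p over 11 comparisons, called members (at most 10 in each direction), all TIMPs and cathepsins by level, and at most 4 called genes of each further list. MMP3 and the arrays that stand apart were chosen after their values were seen. The members and lists were chosen with earlier results of these data known. Alternatives were arms alone, other scalings, fewer probe sets, array weights, a replicate block, only the days concerned, trend and robust moderation, and arrays left out.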

Additional observations from a re-analysis of the deposited data

Results flagged for a closer look

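An array far from the other arrays of its group was looked for in 272 groups of 4 or 5 arrays (17 probe sets, the 15 genes of the rule and 2 of MMP3 added after their values were seen). It was found in 26, of which 7 were in MMP3, chosen for its values. For the 15 genes of the rule it was found in 19 of 240 groups, and chance flags about 1 in 20. CH 3 of day 5 was high in MMP3 at 9.87 and 7.81 in its first and second probe sets. Near the floor, CH 3 of day 7 was at 2.67 and 2.41 in these MMP3 probe sets, PH 1 of day 13 at 2.52 and 2.07, and PN 1 of day 13 at 1.94 in the second. CH 3 of day 7 and PH 1 of day 13 were the arrays of narrow distribution (SD 2.61 and 2.68). CN 5 of day 7 was high in ADAM9 (9.78) and ADAMTS2 (3.6001). ADAMTS2, also near the floor, was high in PH 4 of day 5 (3.45), CH 3 of day 7 (2.05), PN 5 of day 7 (3.71), PN 2 of day 13 (2.07) and PH 2 of day 16 (1.93). ADAM10 was low in CH 3 of day 7 (10.4966) and high in CH 4 of day 16 (11.07). ADAMTS6 was high in PH 4 of day 13 (4.99), and ADAMTS4 was low in PN 1 of day 16 (4.24). MMP19 was low in CN 1 of day 5 (6.78) and MMP23 in PN 5 of day 13 (7.95). TIMP2 was low in CN 2 of day 5 (11.60), TIMP1 in PN 4 of day 13 (8.33), and TIMP3 in PN 2 of day 7 (7.30) and CH 1 of day 13 (7.25). CTSF was low in PN 4 of day 13 (6.65) and high in PH 3 of day 13 (7.81).

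Differences between groups under the same contrast passed the limma test in 3 cases. They were the interaction of pregnancy and progesterone on day 16 for ADAMTS4 (-2.53) and CTSZ (1.27), and the progesterone difference of TIMP2 on day 13 minus that on day 7 (-0.88).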

How the results depend on the processing

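Counts of called members were recomputed under each alternative. Within an arm alone (5 or 4 arrays a day) the count between days 5 and 7 was 0 (CN), 18 (CH), 3 (PN) and 3 (PH), against 19. Between days 7 and 13 it was 10 (CN), 20 (CH), 12 (PN) and 15 (PH), against 29, and between days 13 and 16 it was 0 (CN), 0 (CH), 0 (PN) and 1 (PH), against 5, and 3 without arrays of high smooth muscle markers (3 arrays with a mean over 10, from 8 measured of 10 markers). Pregnancy on day 16 called 1 member, but 0 at normal and 3 at high progesterone, 2 with quantile normalization, 2 with median centring, 3 among brighter probe sets, 9 with array weights, 0 with that day alone, and 2 without arrays of narrow distribution or without those far from their group mean. Progesterone on day 7 called 1, but 3 in cyclic and 0 in pregnant heifers, and 0 with that day alone. Progesterone on day 16 called 0, but 1 in cyclic heifers, 15 with array weights and 3 without the narrow or the far arrays. Array weights called 2 for the interaction on day 13, 6 for that on day 16 and 1 for the pregnancy difference on day 16 minus day 13. The interaction on day 16 called 0 with that day alone. Shares of all probe sets under these alternatives, and under the omissions below, are not given here. The counts are therefore no result about the members. The causes were not tested.

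Leaving out each array in turn gave 18 to 21 members between days 5 and 7, 27 to 31 between days 7 and 13, 3 to 7 between days 13 and 16, 0 to 3 for pregnancy on day 16, 1 to 3 for progesterone on day 7, 0 to 9 for the interaction on day 7 and 0 to 2 for that on day 16. The count between days 13 and 16 was 3 without CN 3 or 5, CH 1, PN 3 or 5 or PH 3 or 4 of day 13, or without CN 4, CH 3, PN 1 or PH 3 or 4 of day 16. For pregnancy on day 16 it was 0 without PN 4, 3 without CH 2 or PH 5, and 2 without CH 4 or 5, PN 5 or PH 1 or 2. For progesterone on day 7 it was 3 without CH 2 or 5 and 2 without CH 4, and for the interaction on day 7 it was 9 without CH 5 and 5 without CH 2. For the interaction on day 16 it was 0 without CN 2 or 5, CH 3, PN 3 or 5 or PH 3 or 4, and 1 without CN 3, CH 1, 4 or 5, PN 2 or 4 or PH 1. The replicate block changed no count: with the block 19, 29 and 5 members were called in the day steps. Of 2127 alternative values for 41 called gene comparisons, 1944 kept sign and call, 170 lost the call and 13 reversed. MMP19 was at 0.0509 in its other probe set between days 5 and 7, and at 0.12 in CH between days 7 and 13. CTSB was at 0.27, 0.53 and 0.15 in 3 probe sets and 0.0217 in the mean of all 6 between days 5 and 7, and at -0.21, -0.15 and -0.0846 in 3 between days 7 and 13. CTSK was at 0.0030 in CH between days 7 and 13. TIMP2 was at 0.0111 and 0.0148 in its other 2 probe sets between days 13 and 16. CTSZ was at -0.0094 for pregnancy on day 16 at normal progesterone.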

Other observations

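Among the genes near the floor, the arrays were not uniformly low. ADAM23 reached 4.05 on day 5, where its median was 2.65, and TIMP4 reached 4.19 on day 13, where its median was 2.59. Another probe set of TIMP4 had a higher mean on day 13 than on day 7, by 0.33 ± 0.10 (limma adjusted p = 0.00572). Its median hardly moved, at 2.17 on day 7 (1.95 to 2.35) and 2.19 on day 13 (2.08 to 3.70). The difference thus lay in the higher arrays of day 13. Of the 3 TIMP4 probe sets 1 was called in this step, and 1 had the opposite sign. MMP9, the gelatinase of neutrophils and macrophages, stayed between 2.09 and 2.38 on all arrays, CH 3 of day 5 included.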
